A study of Homo sapiens with 6 samples.

Results

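The genes described here are FLT3, which encodes a class III receptor tyrosine kinase, and SP1, SP2, SP3 and SP4, which encode zinc-finger transcription factors of the Sp family. They were chosen by symbol, and each of the 5 matched 1 row of the 23698 gene rows. RNA-seq was run on MV4-11, a cell line from acute myeloid leukaemia with an internal tandem duplication of FLT3. Cells stably transduced by lentivirus with a short hairpin RNA against PRMT5, an arginine methyltransferase, gave 3 libraries. Cells transduced with a scrambled hairpin gave the other 3, called control 1 to 3. All libraries share the line and its FLT3 mutation, and read counts per gene do not separate a duplicated from a normal FLT3 transcript. In bulk RNA, fewer cells expressing a gene and less of its RNA per cell cannot be told apart.

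FLT3 binds FLT3 ligand on early haematopoietic progenitors and signals through RAS-MAPK, PI3K and STAT5. The internal tandem duplication lies in the juxtamembrane region, makes the kinase active without ligand, and is one of the common mutations of acute myeloid leukaemia. Sp factors bind GC-rich elements called GC boxes in many promoters. Sp1 is mostly an activator and is found in nearly all cell types, Sp3 recognises the same boxes and can activate or repress, Sp4 is best known from neurons, and Sp2 is the most divergent of the 4 and has been linked to CCAAT elements bound by NF-Y. The study's question joins these genes in a chain in which PRMT5 keeps the microRNA miR-29b low, miR-29b restrains SP1, and Sp1 drives FLT3. The comparison asks whether the messenger RNA of SP1 and FLT3 differs after PRMT5 knockdown.

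The sequences behind the scheme are shown first, because they are the elements through which its members are thought to act. The promoter window of FLT3 (RefSeq, GRCh38.p14, chr13:28100527-28100826, minus strand, 250 bases before to 50 after the annotated start) was 74.0% G or C. The median of 35116 such windows was 58.7%. The 6-letter GC box GGGCGG was searched on both strands, so that its reverse complement CCGCCC counted too, and so was the stricter GGGGCGGGG. Neither was found in the FLT3 window, whereas GGGCGG occurred in 45.0% and GGGGCGGGG in 15.7% of all windows. No letter of the FLT3 window is therefore in capitals.
FLT3 promoter: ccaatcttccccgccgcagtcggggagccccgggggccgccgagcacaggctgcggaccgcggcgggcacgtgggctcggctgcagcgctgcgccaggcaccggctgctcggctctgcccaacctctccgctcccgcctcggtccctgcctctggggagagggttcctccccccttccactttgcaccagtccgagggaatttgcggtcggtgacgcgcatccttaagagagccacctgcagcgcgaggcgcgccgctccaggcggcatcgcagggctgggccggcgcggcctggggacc
The Sp genes themselves differed from FLT3 in this respect. SP1 has 2 annotated windows, with 4 and 10 matches to GGGCGG, and 2 of the 10 overlap each other. The window with more matches (chr12:53380394-53380693, plus strand) is printed with the matches in capitals, and 0.812% of all windows held 8 or more. That window was 83.3% G or C, a share above that of 99.3% of all windows. The comparison of matches did not take this base content into account.
SP1 promoter: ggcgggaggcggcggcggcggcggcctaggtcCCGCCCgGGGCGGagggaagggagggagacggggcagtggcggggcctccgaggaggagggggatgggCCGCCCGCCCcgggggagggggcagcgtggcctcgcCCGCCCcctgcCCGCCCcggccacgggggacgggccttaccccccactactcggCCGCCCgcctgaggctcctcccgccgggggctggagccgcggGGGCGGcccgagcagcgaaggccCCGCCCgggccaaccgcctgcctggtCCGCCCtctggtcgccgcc
SP4 had 4 matches in its window, SP2 had 2, and the 3 windows of SP3 had 2, 2 and 1. The stricter box occurred once in the other SP1 window and once in that of SP4. The SP2 window stood out for another motif, CCAAT, searched on both strands (ATTGG) and chosen after the windows were seen. It occurred 8 times, 2 of them overlapping, where 34.6% of all windows held any and 0.0057% held 8 or more. CCAAT and ATTGG are in capitals in the SP2 window (chr17:47895986-47896285, plus strand).
SP2 promoter: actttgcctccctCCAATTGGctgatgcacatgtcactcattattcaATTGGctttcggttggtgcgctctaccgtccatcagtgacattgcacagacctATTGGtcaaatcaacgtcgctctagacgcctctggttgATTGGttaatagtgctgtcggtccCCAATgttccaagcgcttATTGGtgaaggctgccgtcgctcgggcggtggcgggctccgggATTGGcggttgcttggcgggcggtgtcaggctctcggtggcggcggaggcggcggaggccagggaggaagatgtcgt
A match describes letters in a window, not binding, and the lack of one says only that these letters are not there.

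The microRNA end of the chain was read from the same reference. The 3 members of the miR-29 family share the seed AGCACCA (bases 2 to 8, in capitals), which pairs with TGGTGCT in a transcript.
hsa-miR-29a-3p: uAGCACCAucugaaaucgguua
hsa-miR-29b-3p: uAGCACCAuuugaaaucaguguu
hsa-miR-29c-3p: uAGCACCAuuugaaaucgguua
Among the 5 genes, SP1 alone had this match in the 3′ UTR of its longest-UTR transcript in GENCODE release 29, with 2 matches in 5206 bases. FLT3, SP2, SP3 and SP4 had 0 in UTRs of 778, 1133, 3482 and 3553 bases. Of 3′ UTRs within 20% of the length of that of SP1, 37.1% held at least 1 match, against 14.2% of all 3′ UTRs. At least 1 match in so long a UTR is thus common. The share with 2 or more, as in SP1, was not counted. The matches lie at UTR positions 3584 and 4793, with the 7 letters in capitals.
SP1 site 1: tgcttagggggagcccTGGTGCTa
SP1 site 2: ctctggaagggatgggTGGTGCTc
Poly(A) libraries do not measure mature microRNAs, so no level of miR-29 is set beside SP1 here.

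Library totals ran from 16408484 to 19077106 estimated counts, and 13668 genes entered the tests. All 5 myeloid markers were above 10 CPM (counts scaled to a common library size with TMM factors) in every library, summing to 1290 to 1890 CPM under knockdown and 845 to 1710 CPM in control libraries, the lowest sum being that of the library labelled control 2. B cell, T cell, erythroid and epithelial or stromal markers summed to at most 5.06 CPM, a value of the library labelled control 2 in which COL1A1 had 4.99 CPM, against at most 0.34 CPM elsewhere. LYZ, a myeloid marker, had 35.3 CPM in that library, against 430 to 1270 CPM in the other 5. MPO was lowest there too, at 13.8 CPM against 56.5 to 503 CPM. The other myeloid markers were not low there. CD33, CSF3R and CEBPA had 52.8, 146 and 597 CPM, against 43.9 to 53.8, 63.4 to 146 and 357 to 685 CPM elsewhere. The library labelled control 2 stood apart in other ways too. It correlated with the other 5 at 0.876 to 0.923 across genes in log2 CPM, while the other pairs had 0.952 to 0.995. The highest of these was between knockdown 3 and control 3, and the next, at 0.976, between knockdown 2 and control 1. PRMT5 itself went against the label of the library labelled control 2. It had 103, 71.6 and 53.0 CPM in knockdown libraries 1 to 3, against 133, 53.2 and 158 CPM in those labelled control 1 to 3. The library labelled control 2 thus sits at a knockdown level, while controls 1 and 3 lie above all 3 knockdown values. The log2 difference of PRMT5, knockdown minus control, was −0.60 (SE 0.43, edgeR adjusted p = 0.926) with all libraries. Without the library labelled control 2 it was −0.94 (SE 0.28, 95% interval −1.61 to −0.26, edgeR unadjusted p = 0.0135, adjusted p = 1).

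FLT3 messenger RNA was abundant in every library, and its knockdown and control values overlapped. It had 283, 466 and 446 CPM in knockdown libraries 1 to 3, against 478, 436 and 515 CPM in those labelled control 1 to 3. Knockdown 1 alone held the low value of the 6, and knockdown 2 and 3 lay within the control range. The lower end of that range is the library labelled control 2, and controls 1 and 3 lay above all 3 knockdown values. How many other genes have that layout without this library was not counted. The means were 398 ± 100.5 CPM under knockdown and 476 ± 39.6 CPM in control libraries (SD, n = 3 each). The log2 difference of −0.26 (SE 0.25, 95% interval −0.84 to 0.33) corresponds to 0.836-fold, with an interval of 0.558-fold to 1.25-fold. It did not pass (edgeR quasi-likelihood, adjusted p = 0.926). Without knockdown 1 the difference was −0.07, so that library carried most of it. Without the library labelled control 2 the difference was −0.32 (SE 0.25, 95% interval −0.91 to 0.28), and without both libraries numbered 2 it was −0.45. PRMT5 and FLT3 ordered the libraries alike only in part. Control 3 was highest and control 1 next for both genes. PRMT5 was lowest in knockdown 3 and the library labelled control 2, where FLT3 had 446 and 436 CPM. FLT3 was lowest in knockdown 1, where PRMT5 had 103 CPM.

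SP1, the factor placed upstream of FLT3, was lower in all 3 knockdown libraries than in any control, without passing the test. It had 136, 123 and 137 CPM in knockdown libraries 1 to 3, against 167, 340 and 146 CPM in those labelled control 1 to 3. The knockdown values lay close together (132 ± 7.85 CPM, SD, n = 3), whereas the control mean of 218 ± 106 CPM was drawn up by the library labelled control 2. The log2 difference was −0.72 (SE 0.34, 95% interval −1.504 to 0.07, edgeR adjusted p = 0.926). Without the library labelled control 2 it was −0.24 (SE 0.16, edgeR adjusted p = 1). Knockdown 3 and control 3 were near each other, with 95% counting intervals of 132 to 143 CPM and 141 to 152 CPM that overlap.

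SP3, whose product can compete with Sp1 for the same boxes, followed the same layout at a smaller size. It had 94.9, 91.7 and 98.4 CPM in knockdown libraries 1 to 3, against 100.7, 133 and 106 CPM in those labelled control 1 to 3. Every knockdown value was below every control value, but the gap between knockdown 3 and control 1 was within counting error, with intervals of 93.9 to 103 CPM and 96.0 to 105 CPM. The means were 94.98 ± 3.37 CPM under knockdown and 113 ± 17.6 CPM in control libraries (SD, n = 3 each). The log2 difference was −0.25 (SE 0.20, 95% interval −0.72 to 0.21, edgeR adjusted p = 0.926), and −0.12 without the library labelled control 2. SP1 and SP3 were thus the 2 of 5 genes without overlap, both lower, a layout that 3.1% of all tested genes showed in that direction and 6.24% in either. It was the same for both genes under RLE, upper quartile and total-count scaling, where 2.9% to 3.13% of genes were lower without overlap.

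SP2 overlapped between the groups, with 1 library apart. It had 17.1, 15.6 and 18.98 CPM in knockdown libraries 1 to 3, against 16.6, 7.98 and 19.9 CPM in those labelled control 1 to 3. The library labelled control 2 was the lowest for SP2 and the highest for SP1. Its SP2 value rests on 123 counts, with a counting interval of 6.63 to 9.52 CPM that lies below those of the other 5 libraries. The log2 difference was 0.21 (SE 0.36, 95% interval −0.62 to 1.05, edgeR adjusted p = 0.927), and it turned to −0.08 without that library. The part that the LYZ, COL1A1 and PRMT5 levels of that library have in the SP1, SP2 and SP3 values was not tested.

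SP4 varied within the groups as much as between them. It had 16.4, 21.4 and 11.7 CPM in knockdown libraries 1 to 3, against 17.1, 21.5 and 14.2 CPM in those labelled control 1 to 3. The libraries numbered 2 were highest and those numbered 3 lowest in each group. The log2 difference was −0.09 (SE 0.31, 95% interval −0.81 to 0.63, edgeR adjusted p = 0.961). It was 0.11 without knockdown 3 and 0.08 without the library labelled control 2.

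**Figure D1:**
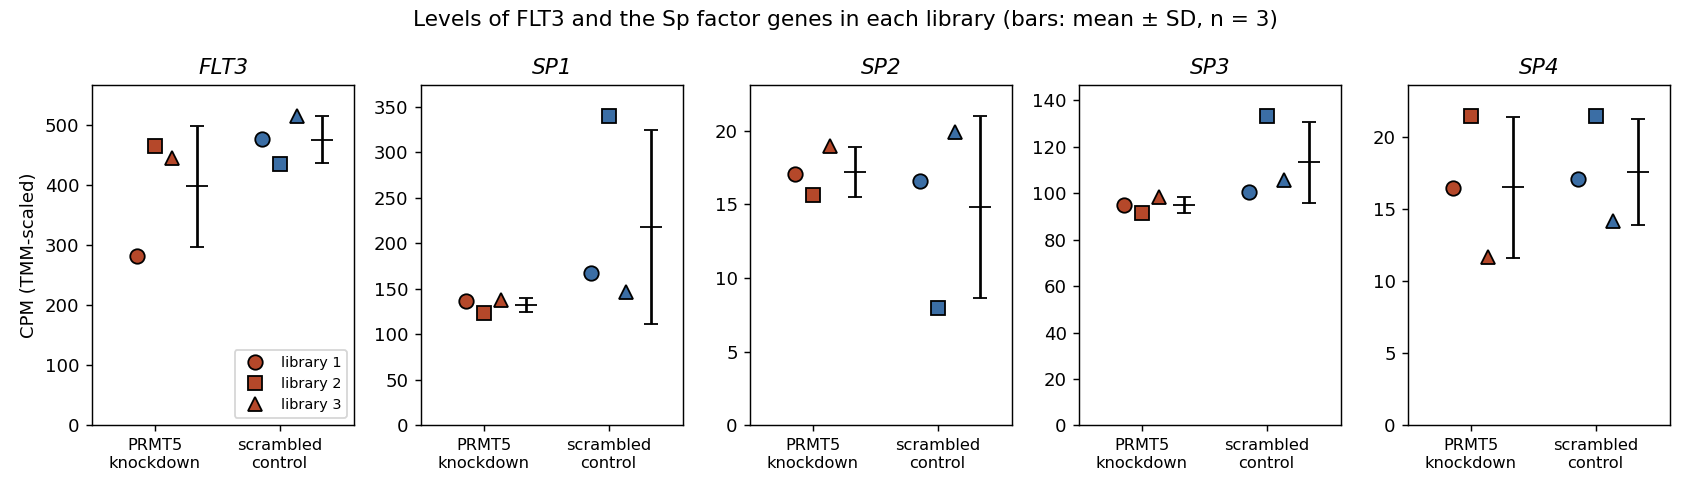
TMM-scaled CPM of FLT3 and the 4 Sp factor genes, with the PRMT5 knockdown libraries left and the scrambled control libraries right in each panel, the marker shape giving the replicate number and the bar the mean ± SD (n = 3). FLT3 has 1 low library, knockdown 1 at 283 CPM, while SP1 at 340 CPM and SP2 at 7.98 CPM have their extreme value in the library labelled control 2.

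None of the 5 genes passed an adjusted p of 0.05 in edgeR's quasi-likelihood test, as none of the 13668 tested genes did (0%). At an unadjusted p under 0.05 there were 0 of the 5 and 242 genes in all (1.77%). DESeq2 and limma-voom also called 0 genes. The intervals above leave room for a decrease of FLT3 to 0.558-fold and of SP1 to 0.353-fold, so a p above the threshold does not show that their levels were equal. Between libraries with the same number, the log2 difference of FLT3 was −0.76, 0.10 and −0.21 in numbers 1 to 3, and that of SP1 was −0.29, −1.46 and −0.09. The pair with the largest SP1 difference is thus the pair in which FLT3 was not lower. That pair holds the library labelled control 2, and PRMT5 was not lower under knockdown in it either. The log2 difference of PRMT5 was −0.36, 0.43 and −1.58 in numbers 1 to 3. SP3 had −0.09, −0.54 and −0.11 in numbers 1 to 3, SP2 had 0.04, 0.96 and −0.07, and SP4 had −0.05, −0.001 and −0.28.

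**Figure D2:**
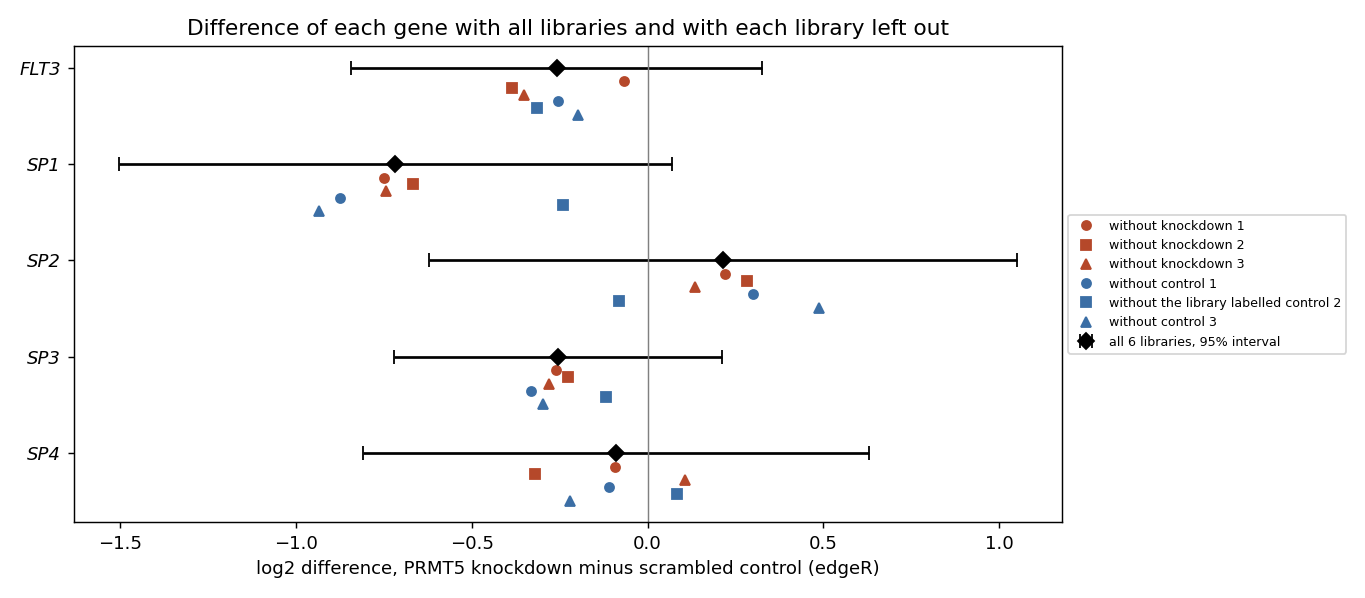
Log2 difference, PRMT5 knockdown minus scrambled control, of each gene in edgeR, with the 95% interval over all 6 libraries (black) and the value with each library left out in turn (coloured symbols). All 5 intervals include 0, and leaving out the library labelled control 2 moves SP1 to −0.24 and SP2 to −0.08.

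Levels of different genes were compared per kilobase of transcript, using the median length of coding transcripts in the GENCODE basic set. FLT3 was highest, at 104 ± 26.2 CPM per kb under knockdown and 124 ± 10.3 CPM per kb in control libraries (SD, n = 3 each). SP1 followed with 25.3 ± 1.5 and 41.7 ± 20.4 CPM per kb under knockdown and in control libraries, and SP3 with 24.1 ± 0.858 and 28.8 ± 4.45 CPM per kb. SP1 was above SP3 in all 6 libraries, by little in knockdown 2 (23.6 against 23.3 CPM per kb) and by most in the library labelled control 2 (65.1 against 33.9 CPM per kb). The size of that gap depends on the transcript lengths used, and it was not tested. SP2 came next, at 8.57 ± 0.841 CPM per kb under knockdown and 7.38 ± 3.07 CPM per kb in control libraries. SP4 was lowest, at 2.81 ± 0.830 and 2.99 ± 0.622 CPM per kb under knockdown and in control libraries. The group means kept this order with the longest transcript of each gene. In the library labelled control 2, SP4 was then above SP2 (3.50 against 2.56 CPM per kb). By CPM, FLT3 ranked 308 among the 13668 tested genes, in the top 2.25%.

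The make-up of the Sp messenger RNA differed most in 1 library. SP1 made up 42.5%, 40.5% and 41.9% of the summed CPM per kb of SP1 to SP4 in knockdown libraries 1 to 3, against 46.5%, 61.1% and 41.6% in those labelled control 1 to 3. SP3 made up 39.2%, 39.9% and 39.9% in the knockdown libraries, against 37.2%, 31.8% and 40% in those labelled control. SP2 held 13.3% to 15.1% in the knockdown libraries, against 12%, 3.72% and 14.8% in those labelled control 1 to 3. These shares depend on the transcript lengths used, which are the same in every library.

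Ratios of counts within a library do not depend on scaling, and were not divided by length. The log2 ratio of SP1 to SP3 was 0.52, 0.43 and 0.48 in knockdown libraries 1 to 3, against 0.73, 1.35 and 0.46 in those labelled control 1 to 3. Control 3 lay within the knockdown range and the other controls above it. The mean difference, knockdown minus control, was −0.37 (two-sided exact permutation test, p = 0.3, the smallest possible being 0.1), and −0.12 without the library labelled control 2. The log2 ratio of FLT3 to SP1 was 1.05, 1.92 and 1.70 in knockdown libraries 1 to 3, against 1.52, 0.36 and 1.82 in those labelled control 1 to 3. Its mean difference was 0.32 (two-sided exact permutation test, p = 0.6), and −0.11 without the library labelled control 2. In that library SP1 was 1.12 higher than controls 1 and 3 on the log2 scale, whereas FLT3 was 0.19 lower on the log2 scale.

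**Figure D3:**
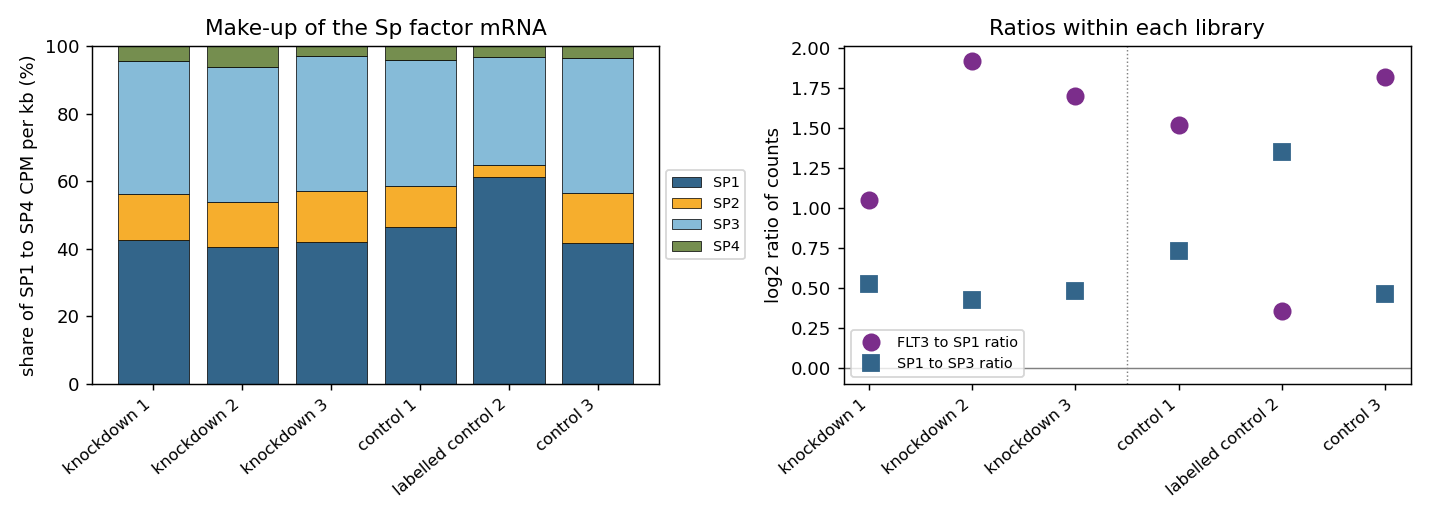
Left, the share of each Sp factor gene in the summed CPM per kb of SP1 to SP4 in each library; right, the log2 ratio of counts of FLT3 to SP1 (circles) and of SP1 to SP3 (squares), with the knockdown libraries left of the dotted line. The library labelled control 2 has the largest SP1 share, 61.1%, the smallest SP2 share, 3.72%, and the lowest FLT3 to SP1 ratio, 0.36.

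Likeness to other genes was measured as the root mean square distance between log2 CPM profiles over the 6 libraries, each centred on its own mean, among tested genes with at least 50 CPM on average. The genes nearest to FLT3 were HAUS5, a subunit of the augmin complex of the spindle, SFXN1, a mitochondrial serine transporter, and MYL6, a myosin light chain, at distances of 0.103, 0.105 and 0.109. The median of the 4710 candidates was 0.423. Like FLT3, all 3 were lowest in knockdown 1, at 35.2, 40.5 and 160 CPM, which their choice by profile makes likely. Those nearest to SP1 were EIF2C4, an Argonaute gene, PNISR, a splicing-related gene, and FBXO11, an F-box gene, at 0.0633, 0.0692 and 0.0827, against a median of 0.567. All 3 were highest in the library labelled control 2, at 98.1, 807 and 105 CPM, which again the choice by profile makes likely. Among all 13667 other tested genes, SP1 was number 8671 in nearness to FLT3, at a distance of 0.54 where the median was 0.465. Their profiles lay furthest apart in the library labelled control 2, with centred log2 values of 1.055 for SP1 and 0.02 for FLT3. Nearness without that library was not measured. SP3 was the nearest Sp gene to FLT3, number 1823 at 0.3. To SP1, SP3 was number 1772 at 0.322 and SP2 number 11136 at 0.906.

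The genes around FLT3 and the Sp factors were taken from 7 lists, with 97 distinct tested genes besides the 5. None passed the test in either direction, and 1 had an unadjusted p under 0.05. The 2 genes MYB and LYN were higher and the 2 genes PBX3 and MEIS1 lower in every knockdown library than in any control, beside 3.14% and 3.1% of all tested genes. The median log2 difference of all tested genes was −0.0007, and each list's median can be read against that value. MYB apart, these 4 genes were chosen after their values were seen.

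The relatives of the Sp factors, SP5 to SP9 and the KLF genes, had a median log2 difference of −0.29 over 13 tested genes, 3 higher and 10 lower, none called. KLF13 had 192 ± 36.0 CPM under knockdown and 232 ± 90.3 CPM in control libraries (SD, n = 3 each), and KLF16 had 80.9 ± 10.1 and 101 ± 26.7 CPM. KLF6, an early-response factor, had 42.0, 36.6 and 28.5 CPM in knockdown libraries 1 to 3, against 49.0, 334 and 28.6 CPM in those labelled control 1 to 3. KLF10, a TGF-beta-induced factor, had a log2 difference of −0.68, and 0.46 without the library labelled control 2. Without that library the list's median was 0.07. SP5, SP6, SP7 and SP8 were below 1 CPM in every library. SP9, named after its values were seen, had 18.3 ± 5.76 CPM under knockdown and 26.9 ± 9.62 CPM in control libraries.

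FLT3 relatives among the receptor kinases had few reads in these cells. The related receptor genes CSF1R, FLT1, FLT4 and PDGFRB, which encode receptors for CSF1, vascular growth factors and platelet-derived growth factor, averaged 8.93, 6.01, 3.19 and 0.734 CPM under knockdown and 11.7, 12.2, 3.36 and 1.63 CPM in control libraries. KIT averaged 0.568 and 0.892 CPM, and KDR was listed at 0 throughout, both genes being outside the naming rule. All 5 tested genes were lower on average and none was called (median log2 difference −0.64). Their values spread widely within groups, FLT1 having 2.30, 15.3 and 0.433 CPM in knockdown libraries 1 to 3, against 15.8, 20.3 and 0.518 CPM in those labelled control 1 to 3. The list's median was −0.43 without the library labelled control 2, −1.14 without knockdown 2 and −1.08 without control 3.

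FLT3 ligand and the proteins that act next to the receptor had no called gene. FLT3LG, the ligand, named for its role, averaged 1.80 ± 0.549 CPM under knockdown and 2.46 ± 0.843 CPM in control libraries. Over 25 tested genes the median log2 difference was −0.07, with 10 higher, 15 lower and none called. GRB2, the adaptor to RAS, had 357 ± 27.3 CPM under knockdown and 338 ± 28.98 CPM in control libraries, with a log2 difference of 0.08 (95% interval −0.37 to 0.53). PTPN11, the phosphatase SHP2, had 280 ± 16.4 and 239 ± 30.8 CPM, and PIK3CD, a PI3K catalytic subunit, 168 ± 59.3 and 180 ± 32.7 CPM. INPP5D, the phosphatase SHIP1, had 342 ± 10.3 CPM under knockdown and 414 ± 77.4 CPM in control libraries. The list's median was 0.009 without the library labelled control 2.

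Other transcription factors that act at FLT3 or in the same progenitor program had a median log2 difference of 0.09 over 12 tested genes, 7 higher and 5 lower, none called. MYB, a progenitor factor, had 519, 592 and 465 CPM in knockdown libraries 1 to 3, against 445, 240 and 462 CPM in those labelled control 1 to 3. Its log2 difference was 0.46 (SE 0.29), and 0.22 without the library labelled control 2. CEBPA, a myeloid factor, had 550 ± 150 and 525 ± 146 CPM under knockdown and in control libraries, RUNX1 had 271 ± 55.3 and 238 ± 64.9 CPM, and MEF2C had 175 ± 72.3 and 189 ± 60.2 CPM. MEIS1, a cofactor of HOX proteins named after its values were seen, had 24.1, 18.3 and 29.6 CPM in knockdown libraries 1 to 3, against 32.2, 102 and 32.9 CPM in those labelled control 1 to 3. Its log2 difference was −1.21 (SE 0.49, edgeR adjusted p = 0.926), and −0.44 without the library labelled control 2. Without knockdown 2 the list's median was −0.05.

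Cofactors and modifiers of Sp1 went both ways, with log2 differences from −0.96 to 0.49 and a median of 0.01 over 23 tested genes, 13 higher and 10 lower, none called. The lowest was ATF7IP, a chromatin cofactor named after its values were seen, with −0.96, and −0.003 without the library labelled control 2. HDAC1 and HDAC2, the deacetylases that Sp1 can recruit, had log2 differences of −0.09 (95% interval −0.54 to 0.37) and 0.03 (−0.42 to 0.48). OGT, which adds O-GlcNAc to Sp1, had −0.01 (SE 0.44), and MED1, a Mediator subunit, had 0.49 (SE 0.36), and 0.18 without the library labelled control 2. Genes reported to depend on Sp1 at their promoters had a median of 0.08 over 16 tested genes, 9 higher and 7 lower, none called. CDKN1A, the p21 gene, had 1465, 681 and 368 CPM in knockdown libraries 1 to 3, against 465, 551 and 277 CPM in those labelled control 1 to 3. VEGFA, DNMT1 and TYMS had log2 differences of −0.08, 0.25 and 0.36, and 0.50, −0.05 and −0.02 without the library labelled control 2. That list's median was −0.03 without it. Of PRMT5 and its methylosome partners, 4 of 5 listed genes had a row under the symbol used, 2 were higher and 2 lower, with a median of 0.13. CLNS1A, RIOK1 and WDR77 had log2 differences of −0.10, 0.37 and 0.50, and −0.10, 0.11 and 0.07 without the library labelled control 2. The list's median was −0.01 without that library and −0.02 without knockdown 1.

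**Figure D4:**
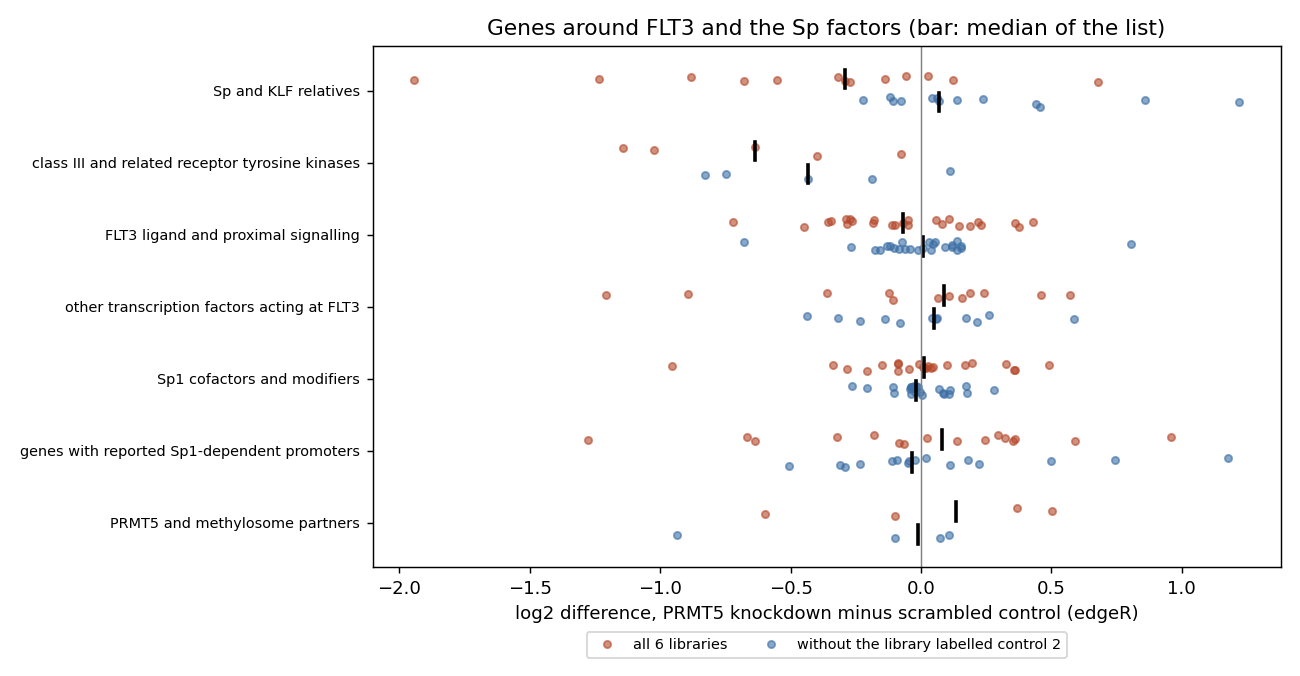
Log2 difference, PRMT5 knockdown minus scrambled control, of each tested gene in the 7 lists, with all 6 libraries (red, upper row of each list) and without the library labelled control 2 (blue, lower row); the black bar is the list's median. The median of the Sp and KLF relatives lies at −0.29 with all libraries and at 0.07 without that one.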

How the data were processed

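Poly(A) libraries were prepared from total RNA, per the labels' protocols. Each library has 1 deposited table of estimated counts by gene, without depth scaling. CASAVA 1.9, TopHat2 version 2, edgeR and the hg19 build appear in the submitters' processing notes with no role. Which counter, annotation and strand setting were used is not given in the sources used here, so overlapping and antisense genes can share reads. At least 99.9958% of values became whole when multiplied by 51 (tolerance 0.001), which would follow if fractions of reads were counted. Counts were rounded. Read counts are not independent molecules, and intervals called counting intervals (exact Poisson, 95%) cover counting error only. Library totals were 16408484 to 19077106.

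Genes kept by filterByExpr (minimum count 10) were fitted with edgeR 4.0.16 in R 4.3.3 (TMM, glmQLFit, glmQLFTest, group as the only term, two-sided, Benjamini-Hochberg over all 13668 genes, threshold 0.05). DESeq2 1.42.0 and limma 3.58.1 (voom), other scalings and filters, and leaving out libraries were alternatives. The script was tested on simulated data. log2 CPM used a prior count of 2 and count ratios one of 0.5. Named genes were the 5, PRMT5, the 4 most abundant tested genes of each list and the 3 genes nearest to FLT3 and to SP1. FLT3LG, KIT, KDR, LYN, PBX3, MEIS1, SP5 to SP9, ATF7IP and the cell type markers other than CEBPA fall outside that rule. Members and lists were chosen with earlier results of these data known. No label says that replicates were separate cultures, so p-values measure only the spread between these samples. Deviations from group means correlated at 0.127, 0.394 and 0.566 between libraries numbered 1, 2 and 3, and at 0.164 between knockdown 2 and control 1, above the pair numbered 1. The other combinations were below 0. This hint of pairing comes from the values, not the labels. The main tests are unpaired, and the fit with the number as a block is an alternative. Promoters and microRNAs are from RefSeq (GRCh38.p14), where all 5 symbols matched, and transcripts from GENCODE release 29. No sequence was read by the files' coordinates.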

Additional observations from a re-analysis of the deposited data

How the results depend on the processing

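The 0 calls over all genes held under RLE, upper quartile and total-count scaling, both other filters, DESeq2, limma-voom, the replicate block and each library left out, and no list member was called in any. Fitting the replicate number as a block gave log2 differences of −0.29, −0.61, 0.30, −0.24 and −0.11 for FLT3, SP1, SP2, SP3 and SP4 (edgeR adjusted p of 0.709 to 0.863), and the block changed no call. Leaving out single libraries gave −0.38 to −0.07 for FLT3, −0.93 to −0.24 for SP1, −0.0816 to 0.489 for SP2, −0.33 to −0.12 for SP3, −0.32 to 0.11 for SP4 and −0.94 to −0.29 for PRMT5. FLT3 had 0.10 in pair 2 alone, an alternative added after seeing the data. Without both libraries numbered 2, SP2 had −0.0193 and the list of other factors at FLT3 a median of −0.0526. Leaving out single libraries gave that median −0.0523 to 0.146, and −0.54 to 0.07 for the Sp and KLF relatives, −1.14 to −0.43 for the receptor kinases, −0.09 to 0.009 for FLT3 signalling, −0.03 to 0.04 for Sp1 cofactors, −0.03 to 0.24 for Sp1-dependent promoters and −0.02 to 0.26 for the methylosome. SP2 was positive and SP4 negative otherwise, apart from the turns given above. With the longest transcript, the mean over the 6 libraries was 5.15 in place of 7.97 CPM per kb for SP2 and 16.4 in place of 26.4 for SP3. Identity between the Sp proteins was planned and was not analysed here. Depth gave FLT3, SP1 and SP3 at least 1509 counts per library, while the lowest SP2 value rests on 123.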
